A study of Mus musculus with 4 samples.

Results

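The 9 genes described here encode molecules that leukocytes and the cells they adhere to use to bind each other: Vcam1, Icam1, Icam2, Sele and Selp on the side of the vessel or the epithelium, and the integrin subunits Itga4, Itgb1, Itgal and Itgb2 on the side of the leukocyte. They were taken by symbol, 9 of the 31053 genes measured. Their mRNA was counted in single kidney cells of male C57BL/6 mice. The animals were 19 months old and had received BPTES, a small-molecule inhibitor of the glutaminase GLS1, or its vehicle DMSO for 1 month. Each treatment has 2 libraries, BPTES 1 and 2 and DMSO 1 and 2, and mice of this age only are compared. Every library mixed 20000 cells sorted as negative for CD45, a surface protein of leukocytes, with 9000 sorted as positive, so 31% of the loaded cells were CD45-positive by design and the balance of leukocytes to kidney cells is set by the sort. The labels tie no library to an animal or a batch, so a p-value here measures only the spread between these libraries, which may be technical.

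Leukocytes leave the blood in steps. The selectins Sele and Selp on activated endothelium bind sugars on passing cells and let them roll, chemokines then activate the integrins, and the integrins hold the cell by binding ligands of the immunoglobulin family. The pair of Itga4 and Itgb1, VLA-4, binds Vcam1, and the pair of Itgal and Itgb2, LFA-1, binds Icam1 and Icam2. Vcam1 and Icam1 are also known on tubular epithelium, where Vcam1 marks proximal tubule cells that did not fully recover from injury.

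The libraries held 249881074 to 297947661 unique molecular identifiers (UMIs, each standing for 1 captured mRNA) in 17907 to 20091 cell barcodes. Of the 76278 barcodes 50605 passed the filters, and 46738 cells remained after predicted doublets were removed. They fell into 48 clusters. Marker genes gave 18 cell type names, and 9 clusters with 7096 cells (15.2%) stayed unnamed. Pairs of libraries shared 90 to 114 cell barcodes. The genes on the endothelial marker list made up a median of 16530 CPM (UMIs per-million UMIs of the cell type in a library) in the cells named endothelium and 5.82 to 12.6 CPM in those named proximal tubule. Endothelium held 727 and 436 cells in the BPTES libraries, against 690 and 913 in the DMSO libraries, proximal tubule 5233, 4835, 5230 and 4543, macrophages 808, 712, 954 and 926, and dendritic cells 240, 212, 403 and 297, in the same order. Because 6 of the 9 genes (Vcam1, Icam2, Sele, Selp, Itga4 and Itgal) were among the variable genes that formed the clusters, the levels across cell types below are a description and carry no test.

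Vcam1 was at its highest in endothelium among the 11 cell types with at least 50 cells in every library, at 247 ± 97.9 CPM (mean ± SD of the 4 libraries). Macrophages followed at 74.5 ± 34.3, and the ranges of the libraries did not overlap between these cell types. Fibroblasts are outside this order, with 48 cells in BPTES 2. Their mean Vcam1 was 222 CPM (160 to 276 over the 4 libraries), which overlaps endothelium. From B cells down to dendritic cells the ranges of neighbours overlapped, and the proximal tubule stood at 1.70 ± 1.70. Of all 31416 Vcam1 UMIs in cells, endothelium held 29.8%, macrophages 16.8%, fibroblasts 6.89%, the proximal tubule 2.34% and unnamed clusters 42.1%. Icam1 was spread more widely: endothelium (149 ± 16.05 CPM) and neutrophils (121 ± 80.8) headed its order by mean with overlapping ranges. Neutrophils were at 61.2 and 67.9 in the BPTES libraries, below monocytes (74.6 to 91.6 over the 4 libraries), and at 120 and 236 in the DMSO libraries, above them. Icam2 stood at 320 ± 15.9 in endothelium and 34.9 ± 6.56 in B cells, the next cell type. Endothelium held 86.9% of the Sele UMIs and 77.5% of the Selp UMIs. Dendritic cells held a further 9.52% of the Selp UMIs.

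Among the same 11 cell types the integrin subunits were ordered differently. Types with fewer than 50 cells in some library are outside this order. Of these, natural killer cells and fibroblasts had a higher mean Itgb1 than endothelium (823 and 769 CPM). Natural killer cells also had 398 CPM of Itgal, and innate lymphoid cells 524 CPM of Itga4. Itga4 was highest in monocytes (1171 ± 143 CPM), then in T cells (780 ± 81.2) and B cells (519 ± 124), with no overlap between the first 3. Itgb1, the partner subunit of many integrins, was highest in endothelium (656 ± 42.8), overlapping T cells (608 ± 72.6), and it was present in every tubular cell type, down to 87.7 ± 9.39 in the proximal tubule. Itgal led in monocytes (544 ± 84.4), followed by neutrophils (355 ± 102) and T cells (336 ± 12.7) with overlapping ranges. Itgb2 was also highest in monocytes (424 ± 36.6) and neutrophils (356 ± 24.4), again overlapping. In the proximal tubule Itga4, Itgal and Itgb2 were at 1.45, 0.881 and 0.919 CPM, far below the leukocytes that led each order.

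**Figure D1:**
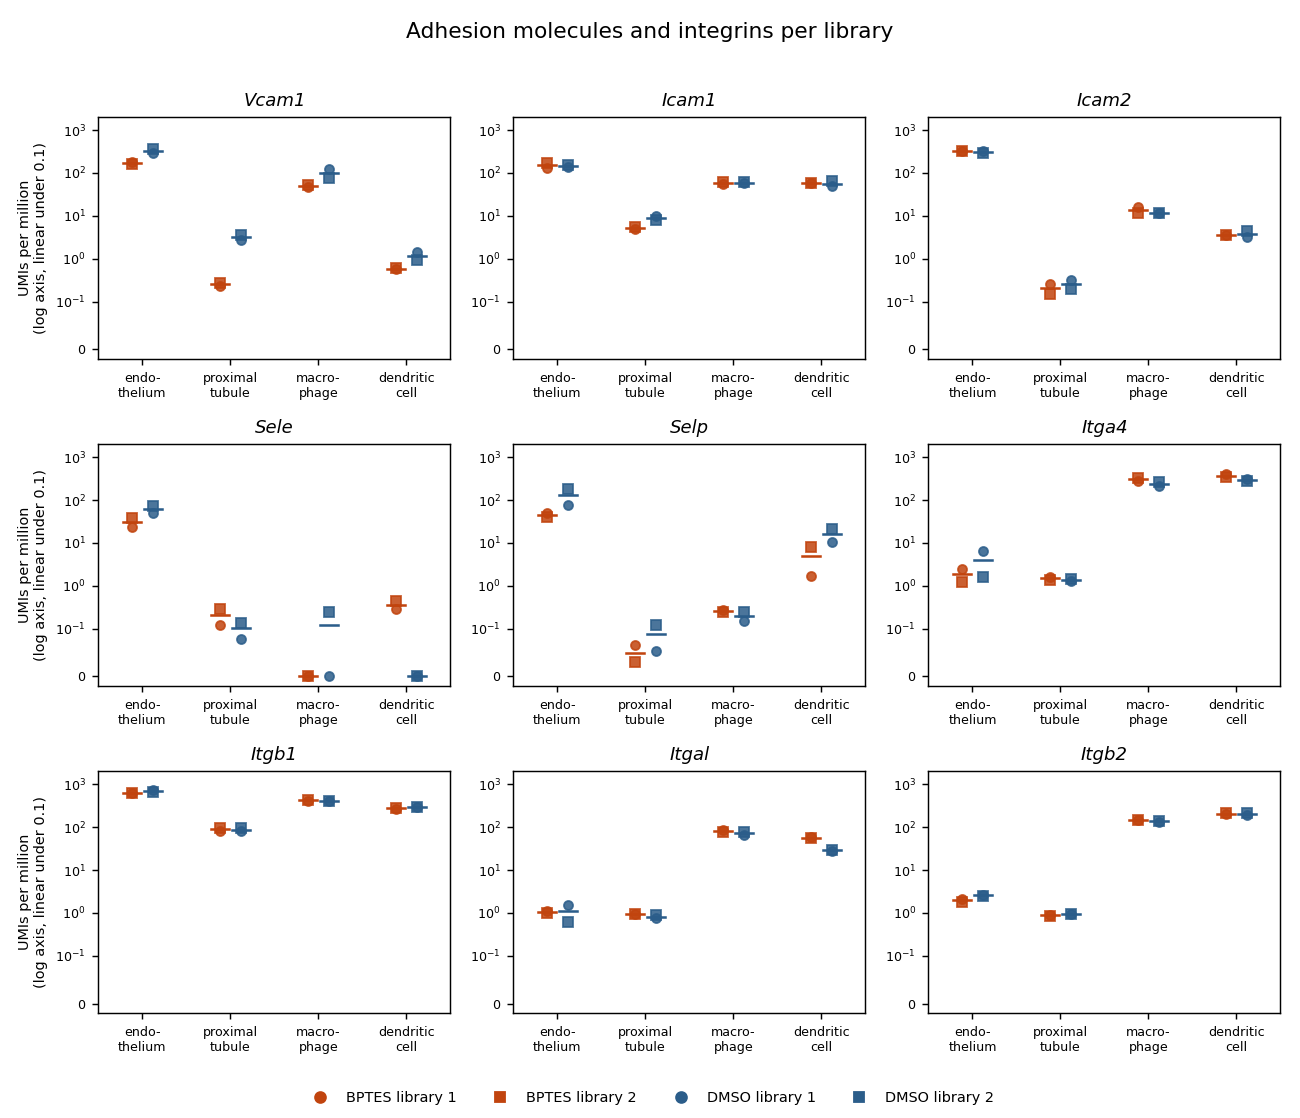
Level of each of the 9 genes in endothelium, proximal tubule, macrophages and dendritic cells, in CPM (UMIs per-million UMIs of the cell type) on a log axis that is linear below 0.1, 1 point per library and a line at the mean of each treatment (BPTES orange, DMSO blue). Vcam1, Icam1, Icam2, Sele and Selp are highest in endothelium among these 4 cell types, and in the proximal tubule Vcam1 separates the DMSO libraries from the BPTES libraries.

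Sele and Selp lie close to each other on chromosome 1 and most of the UMIs of both came from endothelium, and neutrophils were second to endothelium in mean Icam1 level, so the promoters of these 3 genes are printed here. Promoter sequence from RefSeq (GRCm38.p6) was at hand for 5 of the 9 genes: Icam1, Itga4, Itgb1, Sele and Selp. Each line is the 250 bases just before the transcription start given by RefSeq on the strand of the gene, in lower case with motif matches in capitals. The windows of Sele and Selp end at the gene start of the mm10 annotation, and that of Icam1 ends 45 bases before it.
Sele, chr1:164047984-164048233 (+): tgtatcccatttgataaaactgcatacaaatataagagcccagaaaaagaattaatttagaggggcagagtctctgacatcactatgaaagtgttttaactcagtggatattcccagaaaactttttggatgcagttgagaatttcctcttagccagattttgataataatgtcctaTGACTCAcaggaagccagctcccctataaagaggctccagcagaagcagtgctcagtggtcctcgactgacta
Selp, chr1:164115014-164115263 (+): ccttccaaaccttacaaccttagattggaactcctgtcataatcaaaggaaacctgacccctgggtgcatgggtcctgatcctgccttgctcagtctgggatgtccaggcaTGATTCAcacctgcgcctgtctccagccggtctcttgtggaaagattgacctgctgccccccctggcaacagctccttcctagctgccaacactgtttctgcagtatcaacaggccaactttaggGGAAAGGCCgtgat
Icam1, chr9:21015690-21015939 (+): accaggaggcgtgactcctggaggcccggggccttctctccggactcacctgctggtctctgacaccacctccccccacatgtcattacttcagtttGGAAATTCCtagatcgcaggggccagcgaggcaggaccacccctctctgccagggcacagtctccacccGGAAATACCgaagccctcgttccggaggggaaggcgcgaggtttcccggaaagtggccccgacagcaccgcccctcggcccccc
The motifs searched on both strands were GGNNTTTCC, a form of the site bound by NF-kappaB, and TGANTCA, a form of the AP-1 site, and no match of one overlapped a match of the other. Sele has 1 AP-1 match at positions -73 to -67 from the start. Selp has 1 NF-kappaB match at -14 to -6 and 1 AP-1 match at -139 to -133, and Icam1 has NF-kappaB matches at -153 to -145 and -84 to -76. Of the promoters not printed, Itgb1 has 1 NF-kappaB match at -164 to -156 and Itga4 has no match of either motif. Of all 32851 mouse promoters of this length in the table, 4.93% hold the first motif and 6.75% the second. A match is a string of letters and not a site shown to be bound. In mm10, Vcam1 lies on the minus strand of chromosome 3 (116109949 to 116129688) and overlaps Gm43109 on the other strand, Icam1 overlaps Gm47079, Selp overlaps Gm16587 and Gm16548, and Itga4 overlaps Cerkl. The 3' kit keeps the strand, but whether counting used it is not given in the sources used here.

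The first comparison set BPTES against DMSO in endothelium. Vcam1 fell: the BPTES libraries had 1558 and 785 UMIs, the DMSO libraries 2383 and 4641, which is 176 and 161 against 285 and 368 CPM after TMM scaling for composition. Both DMSO libraries lay above both BPTES libraries. The log2 difference was -0.96 (SE 0.12), 1.94 times higher in DMSO, with an adjusted p of 0.0126 by the quasi-likelihood test of edgeR over all 12931 genes tested. Of those genes 0.634% passed the threshold of 0.05, and of the 8 adhesion genes tested 1 did, Vcam1. The call was lost without BPTES 1 (adjusted p = 0.109), without BPTES 2 (adjusted p = 0.159) and when predicted doublets were kept (adjusted p = 0.0958), with the same direction each time.

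More endothelial cells had Vcam1 in the DMSO libraries, and positive cells held more of it. At least 1 UMI was found in 36.6% and 38.3% of endothelial cells under BPTES and in 46.5% and 57.1% under DMSO. Thinned to 1000 UMIs per cell, so that depth is equal, the shares were 11.6% and 9.86% against 16.1% and 20.7%, a difference of -7.70 percentage points. T cells, taken as a cell type that should lack the gene, gave thinned shares of 0%, 0%, 0.185% and 0.178% in the same order of libraries, at median depths of 10498 to 11402 UMIs per cell against 10802 to 13032 in endothelium. Positive endothelial cells held a mean of 5.86 and 4.70 Vcam1 UMIs under BPTES and 7.42 and 8.91 under DMSO. With 2 libraries against 2, the exact two-sided permutation test of a share cannot go below p = 0.33, which is what each of these separations gives.

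The other vascular genes in endothelium did not pass the test. Sele had 204 and 186 UMIs under BPTES, against 424 and 930 under DMSO, or 23.1 and 38.0 against 50.8 and 73.7 CPM. Selp had 434 and 200 against 627 and 2292 UMIs, or 49.1 and 40.9 against 75.1 and 182 CPM. For both selectins the groups did not overlap. The log2 differences were -1.09 (SE 0.36, adjusted p = 0.456, edgeR) for Sele and -1.51 (SE 0.65, adjusted p = 0.596, edgeR) for Selp, whose DMSO libraries stood far apart. Selp passed when DMSO 2 was left out (adjusted p = 0.0443) and when DMSO 1 was (adjusted p = 9.89e-08). In such fits the lone library of a group is assumed to vary like those of the other group. Of the 8 genes tested, 6 had groups that did not overlap, as had 42.4% of all genes tested in endothelium. The median log2 difference of the 8 was -0.64 against -0.001 for all genes. The middle values that set this median were those of Itga4 (-0.92) and Itgb2 (-0.35), leukocyte integrins with few UMIs in endothelium.

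Icam1 in endothelium was at 132 and 172 CPM under BPTES, against 140 and 156 under DMSO, so the groups overlapped, with a log2 difference of 0.03 (SE 0.13). Icam2, a ligand that resting endothelium carries constitutively, was at 328 and 333 against 323 and 297 (0.09, SE 0.09). Itgb1 was at 619 and 641 against 711 and 656 (-0.12, SE 0.09). For none of these 3 genes was the difference much larger than its standard error. Itgb2 (19, 9, 22 and 32 UMIs), Itga4 (22, 6, 53 and 20 UMIs) and Itgal (10, 5, 13 and 8 UMIs, too few to test) were close to nothing, and 1 cell of DMSO 1 held 40 of its Itga4 UMIs.

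Endothelial cells with selectins were mostly cells with Vcam1. Among the Selp-positive cells 89.8%, 80.6%, 93.8% and 90.9% also had Vcam1 in BPTES 1, BPTES 2, DMSO 1 and DMSO 2, against 32.7%, 34.5%, 40.3% and 49.0% of the other endothelial cells. Among Sele-positive cells the shares were 72.9%, 75.6%, 68.3% and 77.8%, against 34.0%, 34.4%, 43.6% and 53.5% of the rest. Cells with a selectin UMI were deeper, with medians of 13542 to 16241 UMIs for Selp and 12717 to 15714 for Sele against 10562 to 12755 in the rest, and the part of depth in this overlap was not tested.

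Endothelium was made of 2 clusters, and the larger held nearly all of its Vcam1. Cluster 2, led by Plvap, a gene of fenestrated capillaries and veins, held 29.6% of all Vcam1 UMIs, 80.6% of Sele and 77.5% of Selp. Its Vcam1 was at 190 and 171 CPM under BPTES, against 308 and 387 under DMSO, and it fell there too (log2 -0.93, SE 0.12, adjusted p = 0.0130, edgeR; 0.487% of the genes tested in this cluster passed). Cluster 41, led by Plat and Ehd3, genes of glomerular endothelium, had the highest Icam2 level of any cluster (610 CPM) and only 1, 1, 64 and 12 Vcam1 UMIs in 34, 25, 44 and 40 cells, too few cells to fit. An unnamed cluster led by Sox17, an arterial endothelial transcription factor, held 18.2% of the Icam2 UMIs. Its Vcam1 was at 182 and 142 against 248 and 187 CPM, and did not pass (log2 -0.41, adjusted p = 0.466, edgeR; 0.599% of its genes passed). Monocyte markers summed to 215 and 175 CPM in endothelium under BPTES, against 304 and 339 under DMSO, over 8 markers of which none was at 0, and macrophage markers to 1583, 1635, 1602 and 1597. Fibroblast markers were at 0.454 and 1.41 against 1.45 and 8.37 CPM, and proximal tubule markers at 412 and 323 against 280 and 257. The part of these signals in the Vcam1 difference was not tested. Fibroblasts are high in Vcam1, at 222 CPM, and monocytes themselves held 1, 0, 1 and 1 Vcam1 UMIs.

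The second comparison was in the proximal tubule, the most numerous cell type. Vcam1 fell there as well, from a far lower level: 29 and 26 UMIs in the BPTES libraries, against 317 and 364 in the DMSO libraries, or 0.236 and 0.286 against 2.65 and 3.49 CPM. All of these are a small fraction of the endothelial level. The log2 difference was -3.56 (SE 0.25), 11.8 times higher in DMSO, with an adjusted p of 0.00405 (edgeR, 16088 genes, of which 0.671% passed). Of the 8 adhesion genes tested here Vcam1 was the 1 that passed, and the call was lost without BPTES 2 (adjusted p = 0.126) but under no other alternative run.

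The Vcam1 UMIs of the proximal tubule came from few cells. Under DMSO 55.5% and 40.4% of them lay in cells with at least 5, against 0% and 19.2% under BPTES. A UMI was found in 25 of 5233 and 18 of 4835 cells under BPTES (0.478% and 0.372%; exact binomial 95% intervals 0.309% to 0.704% and 0.221% to 0.588%) and in 113 of 5230 and 159 of 4543 under DMSO (2.16% and 3.5%; 1.78% to 2.59% and 2.99% to 4.08%). These intervals cover counting error only. Cells with at least 5 Vcam1 UMIs numbered 0 and 1 under BPTES, against 16 and 13 under DMSO, and a positive cell held a mean of 1.16 and 1.44 against 2.81 and 2.29. T cells, taken as a cell type that should lack the gene, gave 0.645%, 0.976%, 2.40% and 2.52% in the order of BPTES 1, BPTES 2, DMSO 1 and DMSO 2, at median depths of 10498 to 11402 UMIs per cell against 16353 to 19455 in the proximal tubule. The proximal tubule share was above that of T cells in DMSO 2 alone, at the greater depth, and these shares are not read as a number of expressing cells. The test above rests on the summed UMIs. T cells with at least 5 Vcam1 UMIs numbered 0 of 931, 0 of 1025, 1 of 1123 and 2 of 1153 in the same order. The shares of B cells were 1.13%, 0.658%, 2.90% and 10.5%, but B cells were not free of other cells: 187 of their 200 UMIs lay in a cluster of 63 cells whose leading genes include Cd79a and Ms4a1 of B cells as well as Ccl8 and C1qa of macrophages.

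Markers of other cell types were read in the same sums. The 9 endothelial markers, none at 0, summed to 9.30 and 5.82 CPM in the proximal tubule under BPTES and 9.57 and 12.6 under DMSO. Vcam1 in the DMSO proximal tubule was 0.963% of its endothelial level, where the 9 endothelial markers had a median of 0.0636% of theirs and at most 0.177%. Under BPTES Vcam1 was at 0.151%, against a median of 0.0443% and at most 0.106%. In neither group was any of the 9 endothelial markers as high as Vcam1. Set against macrophages, Vcam1 was at 0.508% of the macrophage level under BPTES, where the 8 macrophage markers had a median of 0.133% and 2 were as high, and at 3.18% under DMSO, where the median was 0.188% and 1 was as high, at 22.6%. T cells, which are not known for this gene, held 6, 14, 40 and 45 Vcam1 UMIs, 0.588, 1.31, 3.22 and 3.33 CPM, a level and a direction like those of the proximal tubule, and this did not pass the test there (log2 -1.77, adjusted p = 0.138, edgeR). Fibroblast markers in the proximal tubule summed to 0.886, 0.650, 1.27 and 4.95 CPM and macrophage markers to 366, 417, 373 and 401. Markers of cycling cells (54.2 and 41.4 under BPTES, against 86.9 and 67.8 under DMSO), neutrophils (42.7 and 37.2 against 59.4 and 56.7) and monocytes (28.5 and 22.9 against 34.1 and 33.5) were lower with BPTES without overlap. So were those of endothelium and fibroblasts given above, and those of dendritic cells (2.81 and 2.12 against 2.90 and 3.66), parietal epithelium and innate lymphoid cells. Those of principal cells, podocytes, B cells and plasma cells were higher without overlap. The part of all these was not tested.

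The Vcam1 difference of the proximal tubule appeared in most of its clusters. Of the 8 clusters, 6 could be tested for Vcam1 and 5 passed: cluster 0 (log2 -4.01, SE 0.46, adjusted p = 0.000919), cluster 1 (-3.33, SE 0.36, 0.0204), cluster 5 (-3.33, SE 0.50, 0.00175), cluster 13 (-5.32, SE 0.93, 0.0122) and cluster 21 (-5.75, SE 0.70, 0.0144), all by edgeR. The UMIs behind these ran from 0 to 14 per BPTES library and from 9 to 105 per DMSO library, so few that the fitted sizes depend on the small prior count of the model. The filter on low counts can be met by the DMSO libraries alone, so Vcam1 can enter a cluster fit through the group where it is high. The clusters divide the same cells of the same 4 libraries, and their calls add no independent evidence. Cluster 6 did not pass (-2.83, adjusted p = 0.261), and clusters 3 and 26 had too few UMIs. The share of all genes that passed was 3.42% in cluster 0, 0.808% in cluster 1, 2.32% in cluster 5, 0.641% in cluster 6, 1.85% in cluster 13, 0.378% in cluster 21, 0.252% in cluster 3 and 0.155% in cluster 26. Counting every adhesion gene in endothelial and proximal tubule clusters, 8 calls were made: Vcam1 in 6 clusters, Icam1 in cluster 0 (-0.74, SE 0.18, adjusted p = 0.0351) and Itgb1 in cluster 5 (-0.45, SE 0.10, adjusted p = 0.0367).

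As a ratio, the fall of Vcam1 was larger in the proximal tubule than in endothelium, while in CPM it was larger in endothelium. The proximal tubule side rests on a low level, like that of T cells, which are not known for this gene. The interaction of treatment and cell type was -2.58 on the log2 scale (SE 0.20, adjusted p = 3.4e-05, edgeR with library as a block), and 0.539% of the 17239 genes tested passed. It passed under every alternative run for this test. Sele passed as well, at 2.04 (SE 0.38, adjusted p = 0.0261), but its proximal tubule side rests on 15, 28, 9 and 14 UMIs, and the call was lost without BPTES 2 (adjusted p = 0.117). Icam1 did not pass, at -0.70 (SE 0.16, adjusted p = 0.0695), but did with RLE scaling (adjusted p = 0.0311). With a library left out its interaction ran from -0.94 (without DMSO 2) to -0.48 (without DMSO 1).

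Icam1 in the proximal tubule had 593 and 537 UMIs under BPTES, against 1153 and 817 under DMSO, or 4.83 and 5.91 against 9.65 and 7.83 CPM, without overlap. The log2 difference of -0.71 (SE 0.15) missed the threshold by edgeR (adjusted p = 0.0818). The gene passed with DESeq2 (adjusted p = 0.00422), which called 937 of all 16088 genes. It also passed by edgeR without the filter on low counts (adjusted p = 8.47e-06), as did 2109 of 23680 genes. An Icam1 UMI was found in 9.17% and 8.63% of cells with BPTES, against 14.1% and 12.6% with DMSO. Itgb1, the subunit with which epithelial cells hold the basement membrane, was at 79.2 and 104 against 75.4 and 94.2 CPM, and the groups overlapped. Sele (0.122 and 0.308 against 0.0753 and 0.134) and Selp (8, 3, 6 and 13 UMIs, not tested) were near zero there. Itgal and Itgb2 each had groups that did not overlap, as had 57.8% of all genes here and 4 of the 8 adhesion genes, with log2 differences of 0.27 (adjusted p = 0.499) and -0.03 (adjusted p = 0.937), and the proximal tubule is the background for these leukocyte genes.

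**Figure D2:**
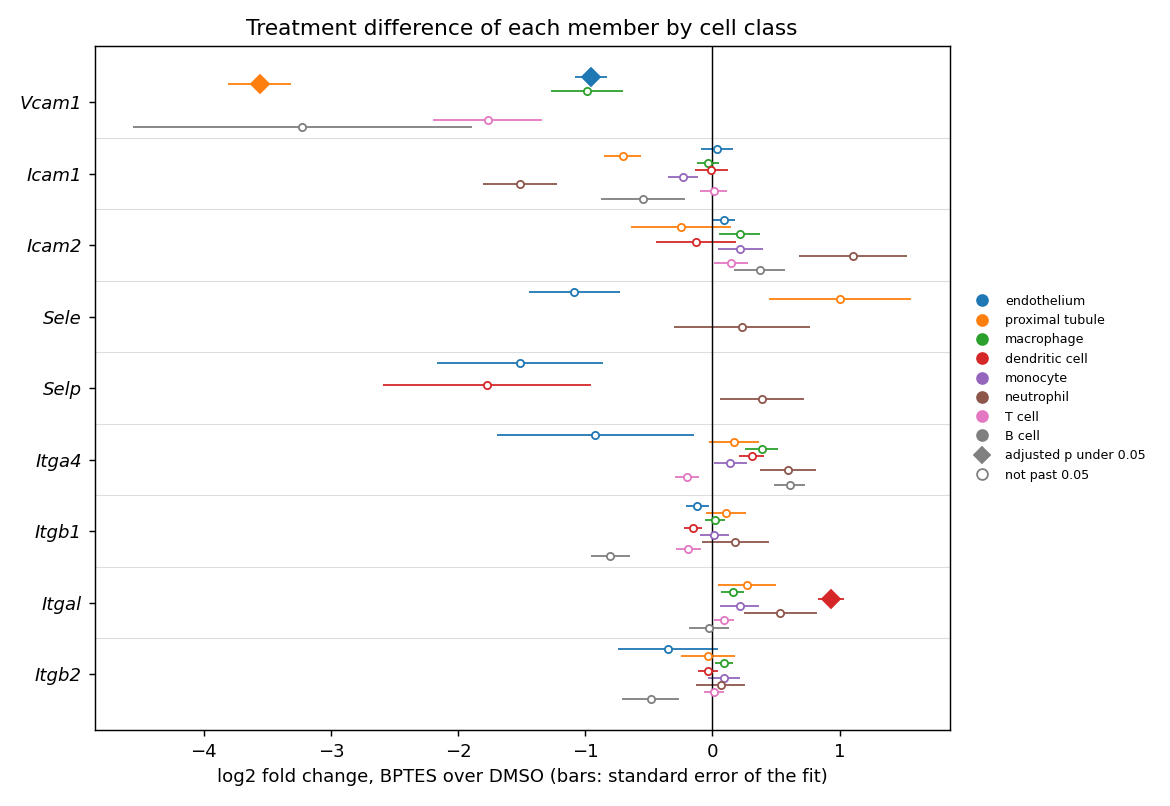
Log2 fold change of BPTES over DMSO for each gene in each cell type tested (colours), negative where BPTES is lower, with bars for the standard error of the fit and filled diamonds where the adjusted p is under 0.05. The 3 diamonds are Vcam1 in the proximal tubule (-3.56) and in endothelium (-0.96) and Itgal in dendritic cells (0.93).

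Outside the named types, Vcam1 was high in clusters that had no cell type name. Cluster 31, led by Cryab and Slc14a2, a urea transporter of the thin limb, had 151 and 78 Vcam1 UMIs under BPTES, against 785 and 2898 under DMSO in 59, 29, 89 and 192 cells. In CPM that is 86.9 and 105 against 338 and 354, with no overlap. The cluster led by Cryab, Apela and C3, which carries the injury marker Havcr1, had 0 and 20 against 202 and 223 UMIs in 11, 8, 42 and 33 cells, or 0 and 148 against 298 and 463 CPM. Both had fewer than 50 cells in some library and were not fitted. Cluster 12, led by Mmp12, a macrophage elastase, and Mgl2, was large enough to fit and is not part of the macrophages compared below. Its Vcam1 UMIs were 208 and 130 against 5149 and 567, or 22.1 and 16.4 against 239 and 36.2 CPM. DMSO 1 stood far above the other libraries, and the difference did not pass (log2 -2.81, SE 1.20, adjusted p = 0.332, edgeR; 0.2% of its genes passed). Fibroblasts, 1 cluster with 69, 48, 65 and 287 cells, were at 160 and 270 against 276 and 182 CPM, with overlap.

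**Figure D3:**
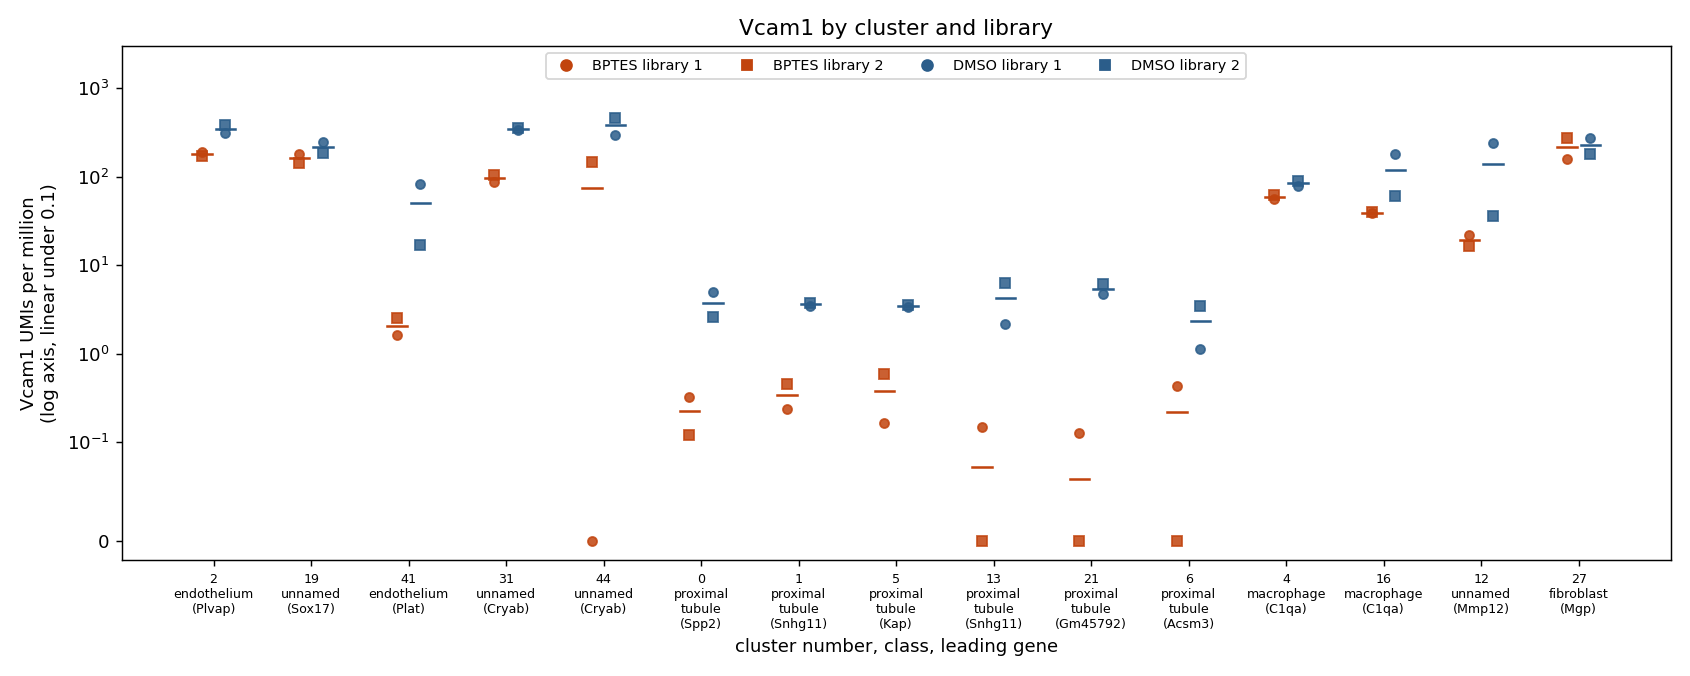
Vcam1 level in the clusters that hold it, in CPM (UMIs per-million UMIs of the cluster) on a log axis that is linear below 0.1, 1 point per library and a line at the mean of each treatment. The DMSO libraries (blue) lie above the BPTES libraries (orange) in cluster 2, in the unnamed clusters 12, 19, 31 and 44 and in the 6 proximal tubule clusters shown. They also do so in both macrophage clusters shown, and the fibroblast cluster overlaps.

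Macrophages carry Vcam1 as well as receptors for it. The BPTES libraries had 697 and 645 Vcam1 UMIs, the DMSO libraries 2359 and 1575, or 46.6 and 53.4 against 122 and 76.0 CPM. The groups did not overlap, as for 56.2% of all genes in macrophages, but DMSO 1 stood well above DMSO 2, and 1 cell of DMSO 1 held 190 UMIs. The log2 difference of -0.99 (SE 0.28) did not pass by edgeR (adjusted p = 0.162), and did with DESeq2 (0.000383). Of the 7 adhesion genes tested in macrophages 0 passed by edgeR, in a cell type where 4.91% of all 13842 genes did. Vcam1 and Itga4, 2 of the 7, had an unadjusted p under 0.05, where 24.2% of all genes had, and DESeq2 called 1, where it called 5.52% of all. The share of Vcam1-positive macrophages, thinned, was 2.14% and 4.02% against 6.70% and 6.94%, and unthinned 23.5% and 20.5% against 32.4% and 38.7%.

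The 2 macrophage clusters that could be fitted gave the same direction without a call. In cluster 4 Vcam1 was at 55.5 and 61.9 against 78.0 and 90.3 CPM (log2 -0.50, adjusted p = 0.0796, edgeR), and in cluster 16 at 38.4 and 39.9 against 179 and 60.6 (log2 -1.60, adjusted p = 0.448). Macrophage Itga4 was at 278 and 330 against 208 and 257 CPM (log2 0.39, SE 0.13, adjusted p = 0.137). Itgal was at 84.0 and 77.8 against 67.4 and 77.5, Itgb2 at 143 and 149 against 134 and 139, and Itgb1 at 411 and 432 against 415 and 415. Macrophage Icam1 was at 55.1 and 61.6 against 58.3 and 61.4 CPM and Icam2 at 15.5 and 11.7 against 11.66 and 11.86, both with overlap. Markers of other cells moved with treatment here: cycling-cell markers summed to 78.8 and 82.4 under BPTES against 254 and 270 CPM under DMSO, over 6 markers with none at 0, and proximal tubule markers to 362 and 329 against 221 and 179, over 10 with none at 0. Fibroblast markers were at 3.12 and 2.43 against 4.82 and 9.80 CPM, and further lists moved in either direction. Their part in these values was not tested.

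In dendritic cells, Itgal, the alpha subunit of LFA-1, rose. The BPTES libraries had 420 and 362 UMIs, the DMSO libraries 367 and 325 from more cells, or 58.7 and 53.8 against 28.3 and 30.6 CPM. Both BPTES libraries lay well above both DMSO libraries, and the spread within each group was small. The log2 difference was 0.93 (SE 0.10), 1.91 times higher in BPTES, with an adjusted p of 0.0208 (edgeR, 12120 genes, of which 0.734% passed). It was the 1 call among 7 adhesion genes tested, and it held under every alternative run on the whole cell type. A positive dendritic cell held 3.62 and 3.23 Itgal UMIs against 2.57 and 2.64.

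The share of Itgal-positive dendritic cells was 48.3% and 52.8% under BPTES and 35.5% and 41.4% under DMSO, and 2.08%, 1.76%, 1.64% and 1.87% in the proximal tubule, the background. The medians were 30143 to 35244 UMIs per dendritic cell and 16353 to 19455 per proximal tubule cell. Thinned, the dendritic shares were 7.08% and 3.81% against 3.24% and 2.37%. Of the clusters named dendritic cells, cluster 17, led by Cd209a, a gene of conventional type 2 and monocyte-derived dendritic cells, had Itgal at 35.4 and 32.7 against 15.8 and 13.3 CPM and passed (log2 1.16, SE 0.14, adjusted p = 0.0316, edgeR; 0.543% of its genes passed). That call was lost without DMSO 1 (adjusted p = 0.0509) and without DMSO 2 (adjusted p = 0.109). Cluster 36, led by Naaa and Xcr1, genes of type 1 dendritic cells, was at 104 and 95.2 against 71.6 and 62.5, and did not pass (log2 0.57, SE 0.13, adjusted p = 0.144; 0.0616% of its genes passed). The level differed between these clusters, and so the class value depends on their cell numbers: cluster 17 held 163, 136, 321 and 208 cells and cluster 36 held 61, 55, 64 and 77.

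The beta partner of Itgal overlapped between the groups. Itgb2 in dendritic cells was at 199 and 210 against 199 and 220 CPM (log2 -0.03, SE 0.08). Itga4 was at 396 and 336 against 310 and 281 (log2 0.31, SE 0.10, adjusted p = 0.189), and Itgb1 at 262 and 282 against 306 and 298 (log2 -0.15, SE 0.07, adjusted p = 0.330). The groups did not overlap for either, which held for 4 of the 7 adhesion genes tested in dendritic cells and for 50.7% of all genes. Icam1 was at 58.0 and 56.4 against 50.7 and 64.5 CPM and Icam2 at 3.49 and 3.56 against 3.32 and 4.42, both with overlap. Selp had 12 and 53 UMIs against 141 and 230, or 1.68 and 7.87 against 10.9 and 21.6 CPM (log2 -1.77, SE 0.82, adjusted p = 0.390), and every one of these UMIs came from cluster 17. Monocyte markers in dendritic cells summed to 972 and 848 under BPTES against 805 and 822 under DMSO, over 8 markers with none at 0, T cell markers to 27.8 and 59.3 against 23.3 and 24.4, and plasmacytoid dendritic cell markers to 284 and 186 against 179 and 156. Natural killer cell markers ran the other way, at 81.2 and 83.0 against 150 and 101, as did those of innate lymphoid cells, at 54.6 and 68.4 against 73.3 and 97.3, and macrophage markers overlapped, at 283 and 357 against 356 and 467. B cell markers were at 35.2 and 21.2 against 20.99 and 8.98, and plasma cell markers at 111 and 124 against 85.8 and 87.7. All 8 are cell types with more Itgal than dendritic cells, and their part in the Itgal difference was not tested.

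The Itgal difference in macrophages, 0.16 (SE 0.09, adjusted p = 0.332), was set against that in dendritic cells in 1 model. The difference between them was -0.74 (SE 0.11) with an adjusted p of 0.0899, so it did not pass. No adhesion gene passed this test, in which 0.072% of 13884 genes did; Itgal and Selp had an unadjusted p under 0.05, as had 10.6% of all genes. With a library left out the Itgal difference between the cell types ran from -0.81 (without BPTES 2) to -0.68 (without DMSO 2).

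In the other leukocytes, of 28 tests of adhesion genes in B cells, monocytes, neutrophils and T cells, 0 passed by edgeR, 6 had an unadjusted p under 0.05 (6725 of all 44697 tests of genes in these cell types did, 15%), and 3 passed with DESeq2 (1.73% of all). The shares of all genes that passed were 0.503% in B cells, 0.814% in monocytes, 0.0% in neutrophils (where 962 had an unadjusted p under 0.05 and DESeq2 called 63) and 0.268% in T cells. The groups did not overlap for 6 of 7 adhesion genes tested in B cells, 2 of 6 in monocytes and 4 of 7 in T cells, and for 52.0%, 47.3% and 49.3% of all genes in these cell types. B cells had the lowest adjusted p-values of these: Itgb1 at 159 and 120 under BPTES against 249 and 238 CPM under DMSO (log2 -0.80, SE 0.15, adjusted p = 0.0655), and Itga4 at 626 and 633 against 448 and 379 (log2 0.61, SE 0.12, adjusted p = 0.0804). Neither passed in the fit on all libraries. The subunits of VLA-4 lay on opposite sides of 0 in these cells. Macrophage markers in B cells were at a median of 3.76% of the macrophage level under BPTES and 24.1% under DMSO, over 8 markers. In the main B cell cluster alone, Itgb1 was at 151 and 115 against 236 and 176 CPM.

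Neutrophil Icam1 was at 58.7 and 68.2 under BPTES, against 131 and 230 under DMSO, and did not pass (log2 -1.51, SE 0.29, adjusted p = 0.270, edgeR). Neutrophil Icam2 was at 8.50 and 10.2 against 5.61 and 3.27 (log2 1.11), Itga4 at 454 and 584 against 380 and 308, and Itgal at 414 and 430 against 374 and 210. None of these groups overlapped, which held for 4 of the 8 adhesion genes tested in neutrophils and for 41.2% of all genes. In monocytes, the cells with the most Itga4, that gene was at 1341 and 1119 against 1016 and 1216 CPM and overlapped. T cells had Itga4 at 706 and 746 against 789 and 882 (log2 -0.20, adjusted p = 0.334) and Itgal at 346 and 347 against 332 and 319 (log2 0.09, adjusted p = 0.595). Icam1 was at 73.7 and 83.2 against 91.7 and 92.6 CPM in monocytes (log2 -0.23, adjusted p = 0.376), and at 67.3 and 74.2 against 76.7 and 63.8 in T cells. The selectins were low in neutrophils, Sele at 3.84 and 8.97 against 6.81 and 4.28 CPM and Selp at 13.4 and 17.9 against 14.4 and 9.81, with overlap for both.

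**Figure D4:**
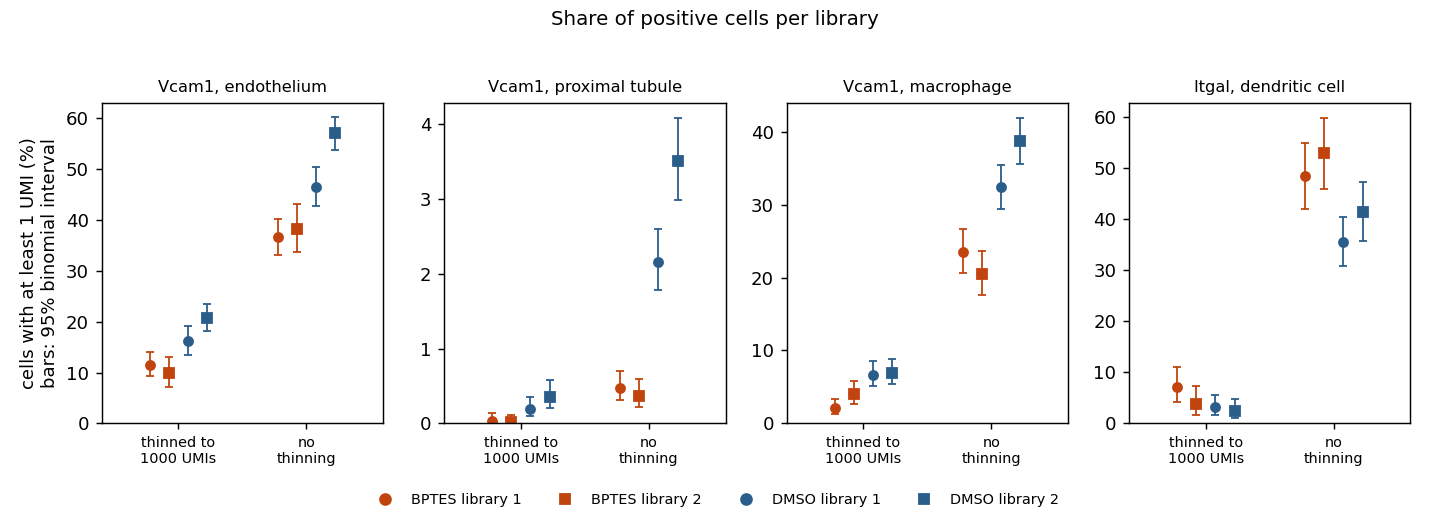
Share of cells with at least 1 UMI, in percent, for Vcam1 in endothelium, proximal tubule and macrophages and Itgal in dendritic cells, thinned to 1000 UMIs per cell (left in each panel) and not thinned (right), 1 point per library with exact binomial 95% intervals. The BPTES (orange) and DMSO (blue) libraries do not overlap in any of the 4 panels, and every share is higher without thinning.

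Of the wider adhesion pathway, 5 gene lists were followed in the 4 main cell types. In endothelium 0 of 7 tested genes passed among other selectins and their ligands, 0 of 9 among other integrin subunits, 0 of 12 among junctional molecules of transmigration and 0 of 12 in the integrin activation machinery. In the list of endothelial activation and matrix ligands 1 of 10 rose and 1 fell: Csf1, the growth factor of macrophages, from 92.2 and 93.4 CPM in DMSO to 138 and 139 in BPTES (log2 0.58, adjusted p = 0.00977), and Spp1, the secreted integrin ligand osteopontin, from 34.2 and 47.1 to 18.2 and 13.7 (log2 -1.33, adjusted p = 0.0273). Csf1 was lost without BPTES 1, BPTES 2 or DMSO 2 (adjusted p = 0.0623, 0.0756 and 0.0794) and Spp1 without BPTES 1 or BPTES 2 (adjusted p = 0.118 and 0.186). The list's median was -0.20 against -0.001 for all genes.

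In the proximal tubule the same list had 2 of 10 genes lower and a median of -0.82 against -0.004 for all genes. These were the chemokines Cxcl1 (0.0977 and 0.154 under BPTES against 1.30 and 1.57 CPM, log2 -3.53, adjusted p = 0.00823) and Ccl2 (0.0814 and 0.121 against 0.460 and 0.833, log2 -2.68, adjusted p = 0.0434). Of 13 other integrin subunits 1 rose, Itgad, at 0.659 and 1.09 against 0.126 and 0.201 (adjusted p = 0.0425). All 3 stand at or below a few CPM, and all 3 were lost without BPTES 2 (adjusted p = 0.143, 0.268 and 0.271 in this order); Ccl2 was also lost without BPTES 1 (adjusted p = 0.0706). No gene passed among the 8 selectin, 11 junctional and 12 activation genes tested.

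In macrophages, where 4.91% of all genes passed, St3gal4 of the selectin list, an enzyme that builds selectin ligands, rose (adjusted p = 0.0233). Of 13 integrin subunits Itgb7 rose (75.4 and 75.1 against 51.8 and 39.6 CPM, adjusted p = 0.0339) and Itga6 fell (91.1 and 99.8 against 136 and 135, adjusted p = 0.0150). Cytip, an adaptor that dampens integrin activation, rose as 1 of 12 (178 and 204 against 133 and 118, adjusted p = 0.0174). Ccl2, a chemokine that draws monocytes, fell from 111 and 159 to 36.7 and 30.3 (log2 -2.01, adjusted p = 0.0305) and Spp1 from 64.2 and 80.3 to 37.3 and 43.1 (adjusted p = 0.0221), 2 of 10 in the activation list. Each of these macrophage calls was lost when either BPTES library was left out, at adjusted p-values from 0.0659 to 0.259. In dendritic cells 1 of 12 integrin subunits fell, Itgax, the integrin CD11c that marks them (164 and 165 against 265 and 233, log2 -0.60, adjusted p = 0.0372), and no other list had a call.

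Across the 44 sums of 11 cell types and 4 libraries, among the 5 genes whose log level was most like that of Vcam1 were Gm4951 (Pearson r = 0.872), Pmp22 (0.839), Nes (0.838) and Gm26714 (0.828), of 12261 genes compared. The sums share libraries and cell types and are not independent points.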

How the data were processed

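The libraries were made with the Chromium GEM-X 3' kit v4 after liberase digestion and sorting on CD45, per the labels' protocols. The authors deposited UMI counts, not normalized, for each gene and cell barcode, made with Cell Ranger 8.0.1 and mm10, per the file headers and the submitters' processing notes. An added tdTomato sequence, at 0 UMIs, was left out. Barcodes were kept with at least 500 UMIs, 300 genes and at most 50% mitochondrial UMIs. The mitochondrial limit alone was exceeded by 30.9% to 34.2% of barcodes per library. Doublets predicted by Scrublet were removed at an assumed rate of 0.4% per 1000 barcodes (3867 cells, where its own threshold marked 634). Cells were clustered on 3000 variable genes and 40 components (scanpy 1.11.5, Leiden resolution 1.0) and clusters named from 25 marker lists.

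UMIs were summed per library and cell type and tested with edgeR 4.0.16 (TMM scaling, filterByExpr, robust quasi-likelihood test, Benjamini-Hochberg over all genes of the fit, threshold 0.05) in the 8 cell types with at least 50 cells per library that the comparison names, in interactions and within clusters. Levels are in CPM, UMIs per-million UMIs of the cell type or cluster. In the treatment comparisons they are scaled by TMM for genes tested in a whole cell type. Levels of clusters and summed markers are not scaled by TMM. Alternatives were DESeq2 1.42.0, RLE scaling, no filter, a replicate block, each library left out, other cell filters and other clusterings. The fits were tested on simulated data. All 9 genes were tested in each of these cell types where their counts allowed, whatever their values, and genes of the pathway lists were named where they passed, except genes that are not reported here. The members and lists were chosen with earlier results of these data known. Of the 72 pairs of gene and cell type, 58 passed the filter on low counts and were tested, and 3 passed the test; Itgal in endothelium, Selp in proximal tubule, Sele and Selp in macrophages, B cells, T cells and monocytes, Vcam1 and Sele in dendritic cells, and Vcam1 in monocytes and neutrophils did not reach it.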

Additional observations from a re-analysis of the deposited data

Results flagged for a closer look

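The treatment difference of 2 genes was not the same in the proximal tubule and in endothelium by the interaction test. For Vcam1 the log2 difference of BPTES over DMSO was lower in the proximal tubule by an interaction of -2.58 (SE 0.20, adjusted p = 3.4e-05, edgeR), with 29, 26, 317 and 364 UMIs in the proximal tubule and 1558, 785, 2383 and 4641 in endothelium (BPTES 1, BPTES 2, DMSO 1, DMSO 2). In CPM the proximal tubule was at 0.236, 0.286, 2.65 and 3.49. T cells, which are not known for this gene, were at 0.588, 1.31, 3.22 and 3.33. For Sele the interaction was 2.04 (SE 0.38, adjusted p = 0.0261, edgeR), with 15, 28, 9 and 14 UMIs in the proximal tubule and 204, 186, 424 and 930 in endothelium. In the proximal tubule Sele was at 0.680% of its endothelial level under BPTES and 0.172% under DMSO, and the highest of the 9 endothelial markers there was at 0.106% and 0.177% of its own.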

How the results depend on the processing

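The single-gene results followed here were adhesion genes whose groups did not overlap, and pathway genes and cluster results that had passed. The interactions of Vcam1, Sele, Icam1 and Itgal were added. Most were thus chosen on these same data. Where groups do not overlap, leaving out a library can hardly reverse the direction, so a kept direction was largely set by this choice. For these 59 results, 683 of 688 alternatives kept the direction, 60 lost a call and 41 gained one. Those that reversed were small and not called: Itgal and Itgb2 in the proximal tubule (-0.19 with predicted doublets kept and 0.0415 with unnamed clusters added), Itgb2 in macrophages (-0.0017 with doublets kept) and Icam1 in monocytes (0.0299 with doublets kept and 0.0309 with the 9 genes left out of clustering). The cause was not tested.

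The count of adhesion genes called was 1 in endothelium, 1 in the proximal tubule, 0 in macrophages, 1 in dendritic cells and 0 in other leukocytes. It was 0 in the comparison of macrophages with dendritic cells and 8 in the clusters of endothelium and proximal tubule. Leaving out a library lowered or raised it in endothelium and the proximal tubule. It at most raised it in macrophages, other leukocytes and that comparison. DESeq2 called 2 in the proximal tubule (937 of all 16088 genes), 1 in macrophages (764 of 13842) and 3 in other leukocytes (773 of 44697). Without the filter on low counts it was 2 in the proximal tubule (2109 of 23680), 1 in macrophages (1639 of 21525) and 2 in dendritic cells (1179 of 19708). In other leukocytes it was then 4. With doublets kept it was 0 in endothelium (5 of 13801), 2 in dendritic cells (579 of 13242) and 5 in other leukocytes, 3 of them in monocytes (1740 of 13418). With unnamed clusters added it was 1 in macrophages (1136 of 14951). With the genes left out of clustering it was 3 in other leukocytes, all in monocytes (1841 of 13215).

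Replicate numbers name libraries and pair nothing by the labels. With 2 pairs, each library was taken as its deviation from the mean log level of its own treatment, over the more highly expressed genes. These deviations of BPTES 1 and DMSO 1 correlated at 0.408 in the proximal tubule and at -0.144 to 0.185 elsewhere. The edgeR fit with a replicate block called 2 adhesion genes in endothelium, where it called 124 of all 12931 genes. In the proximal tubule it called 2, and 2288 of all 16088 genes. In other leukocytes it called 2 in B cells (617 of 10932 genes) and 1 in T cells (601 of 13065). In the clusters of endothelium and proximal tubule it called 13, and the counts of macrophages and dendritic cells stayed as they were. Sele in endothelium (adjusted p = 0.0047) and Icam1 in the proximal tubule (adjusted p = 0.0291) passed with the block, and Itgax in dendritic cells did not (adjusted p = 0.054). A crossed block in monocytes, added after seeing the data, called 857 genes against 90 and none of the 9.

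Shares of positive cells moved with depth. For Vcam1 the difference was -7.70 percentage points in endothelium (-14.3 unthinned, -3.42 for at least 2 UMIs), -0.244 in the proximal tubule (-0.562 at 2000 UMIs, -2.41 unthinned, -0.0296 for at least 2) and -3.73 in macrophages (-13.5 unthinned, -0.209 for at least 2). For Itgal in dendritic cells it was 2.64 (6.79 at 2000 UMIs, 12.1 unthinned, 0.0388 for at least 2). Counts over all genes ran across these alternatives from 5 to 538 in endothelium (82 as reported), 3 to 2288 in the proximal tubule (108), 33 to 1639 in macrophages (679), 74 to 1179 in dendritic cells (89), 0 to 1266 in B cells (55), 17 to 1841 in monocytes (90), 0 to 1728 in neutrophils (0) and 2 to 601 in T cells (35).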
